A study of Saccharomyces cerevisiae with 9 samples.

Results

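The small-subunit ribosomal protein genes of budding yeast were taken as the rows of the count table whose standard name in the R64 reference is RPS plus a number, with an A or B where the gene has a paralog. There were 56 such genes among 7128 gene rows, and all 56 were among the 6338 genes that passed the filter on low counts. They form 32 protein families: 24 pairs of paralogs named A and B, and 8 genes without a paralog, such as RPS2, RPS3, RPS20 and RPS31. The cells were log-phase cultures of the diploid laboratory strain BY4743, grown at 30 °C in medium without leucine and uracil, and every strain carried a multicopy plasmid with URA3 and a leu2 allele as markers. MOXop cells overexpressed moxGFP, a GFP without cysteine, and GFPop cells overexpressed EGFP, each from the strong TDH3 promoter on that plasmid. Vector cells carried the plasmid without a GFP. Each group had 3 libraries, which the study describes as biological replicates. The plasmid is selected for high copy number, and the copy number was not measured in these libraries.

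The small subunit of the cytosolic ribosome (40S) holds the 18S rRNA and the proteins encoded by these genes. It binds the mRNA, runs it through a channel between its head and body, and reads codons at the decoding centre. Ribosomal proteins are made in nearly equal numbers, and their genes are among the most transcribed of a growing yeast cell. Most of them are driven by Rap1, a general DNA-binding protein, together with Fhl1, Ifh1, Sfp1 and Hmo1, and are lowered as a group when growth slows. Many yeast ribosomal protein genes kept both copies from an ancient duplication of the genome, and they hold a large share of the introns of yeast. Of the 56 genes, 36 have an intron and 20 do not. The paralogs of 9 pairs encode identical proteins (RPS4, RPS6, RPS23 and RPS30 are examples), and the coding sequences of 20 pairs are at least 90% identical, so reads of paralogs could be divided between them wrongly and their separate values are less certain than their sum. RPS22B overlaps another gene, the snoRNA SNR44 in its intron.

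A pattern for the core of the Rap1 site was searched on both strands between 500 and 101 bases before each start codon of the R64 reference. The pattern has 11 letters, some of which may be any base, so its matches differ in sequence. It was found before 18 of the 56 genes (32.1%), against 134 of 6000 nuclear protein-coding genes (2.2%). The stretches below are from RefSeq R64 and are written 5′ to 3′ along the strand of the gene, with a single match in capitals. They are shown because they stand before genes from both ends of the range described here. RPS30B and RPS21B were among the genes with the highest fold changes in MOXop, and RPS0B among those with the lowest. RPS30A is the paralog of RPS30B with a smaller fold change. RPS23B and RPS10A belong to pairs whose ratio of A to B counts did not overlap between GFPop and Vector, although no pair passed a test. RPS7B and RPS9A were the least abundant per length. In RPS10A the match lies on the opposite strand and reads as its reverse complement.
RPS30B (chrXV:678988-679046, minus strand): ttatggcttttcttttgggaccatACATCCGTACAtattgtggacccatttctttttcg
RPS30A (chrXII:713350-713408, minus strand): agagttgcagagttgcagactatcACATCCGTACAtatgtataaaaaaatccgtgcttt
RPS21B (chrX:157566-157624, minus strand): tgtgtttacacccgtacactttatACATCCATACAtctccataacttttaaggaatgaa
RPS0B (chrXII:241783-241841, plus strand): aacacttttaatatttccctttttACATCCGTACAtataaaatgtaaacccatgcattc
RPS23B (chrXVI:794631-794689, plus strand): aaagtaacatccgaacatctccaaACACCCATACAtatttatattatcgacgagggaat
RPS10A (chrXV:866734-866792, plus strand): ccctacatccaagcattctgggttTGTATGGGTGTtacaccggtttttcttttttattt
RPS7B (chrXIV:444748-444806, minus strand): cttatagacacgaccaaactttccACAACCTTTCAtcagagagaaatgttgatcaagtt
RPS9A (chrXVI:404682-404740, plus strand): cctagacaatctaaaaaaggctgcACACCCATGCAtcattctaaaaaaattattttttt
The first base in capitals lies 229 bases before the start codon of RPS30B and 226 before that of RPS30A. It lies 327 bases before that of RPS21B and 425 before that of RPS0B. The RPS21B stretch holds another match in its lower-case letters, which starts 344 bases before the start codon. RPS21B, RPS16B, RPS17A and RPS17B held a match at more than 1 place. Among the genes without a match in the window were RPS31, RPS29A and RPS26B, which were also among those with high fold changes.

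The libraries held 7022201 to 12959660 gene counts, and the lowest count of any of these genes in any library was 300. The deposited values are raw counts, and CPM below are counts relative to library size after TMM scaling, which corrects for library composition. Where 3 values of a group are given, they are those of replicates 1 to 3. MOXop replicate 2 stood apart from every other library. Ribosomal RNA took 61.2% of its gene counts, against 2.74 to 23.0% in the other 8 libraries, and its chi-square per degree of freedom against the other MOXop libraries was 1144 and 1362, against 43.4 to 195 for the other pairs of replicates. Its TMM factor was 0.384, so its CPM are larger than its counts divided by its total would give. The counts of all small-subunit genes called are therefore given with and without it, and so are the fold changes of single genes and the pair differences that moved by 0.5 or more on the log2 scale without it. The moxGFP row took 18.0, 4.11 and 31.1% of counts in MOXop replicates 1 to 3, the EGFP row took 11.5, 11.2 and 23.8% in GFPop replicates 1 to 3, and neither passed 0.000675% in a Vector library.

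Small-subunit genes together took 4.86, 3.79 and 6.18% of all gene counts in MOXop replicates 1 to 3, 4.30, 2.83 and 3.67% in GFPop replicates 1 to 3, and 1.44, 2.15 and 3.05% in Vector replicates 1 to 3. By this measure every MOXop library lay above every Vector library, while GFPop overlapped both. The means were 4.94 ± 1.20% in MOXop, 3.60 ± 0.737% in GFPop and 2.21 ± 0.807% in Vector (SD, n = 3 each). With ribosomal RNA and GFP rows left out of the total, the shares averaged 8.96 ± 2.29% in MOXop, 4.98 ± 1.00% in GFPop and 2.55 ± 0.789% in Vector, and the groups did not overlap. The lowest MOXop library was then at 6.49% and the highest GFPop library at 5.58%, and the lowest GFPop library was at 3.82% and the highest Vector library at 3.42%. Counting error was small beside this spread, with Wilson 95% limits, which cover counting error only, within 0.015 percentage points of each share. In these bulk cultures, more cells with a given mRNA and more of that mRNA per cell cannot be told apart. Within GFPop and Vector the genes moved together in several libraries. All 56 were below the mean of the other GFPop libraries in GFPop replicate 2 and above it in GFPop replicate 1. By the same measure all 56 were above the other Vector libraries in Vector replicate 3, and 55 were below them in Vector replicate 1. The genes were less uniform elsewhere. In GFPop replicate 3, 33 were above, and in Vector replicate 2, 20. In MOXop replicates 1 to 3, 7, 47 and 18 were above.

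**Figure D1:**
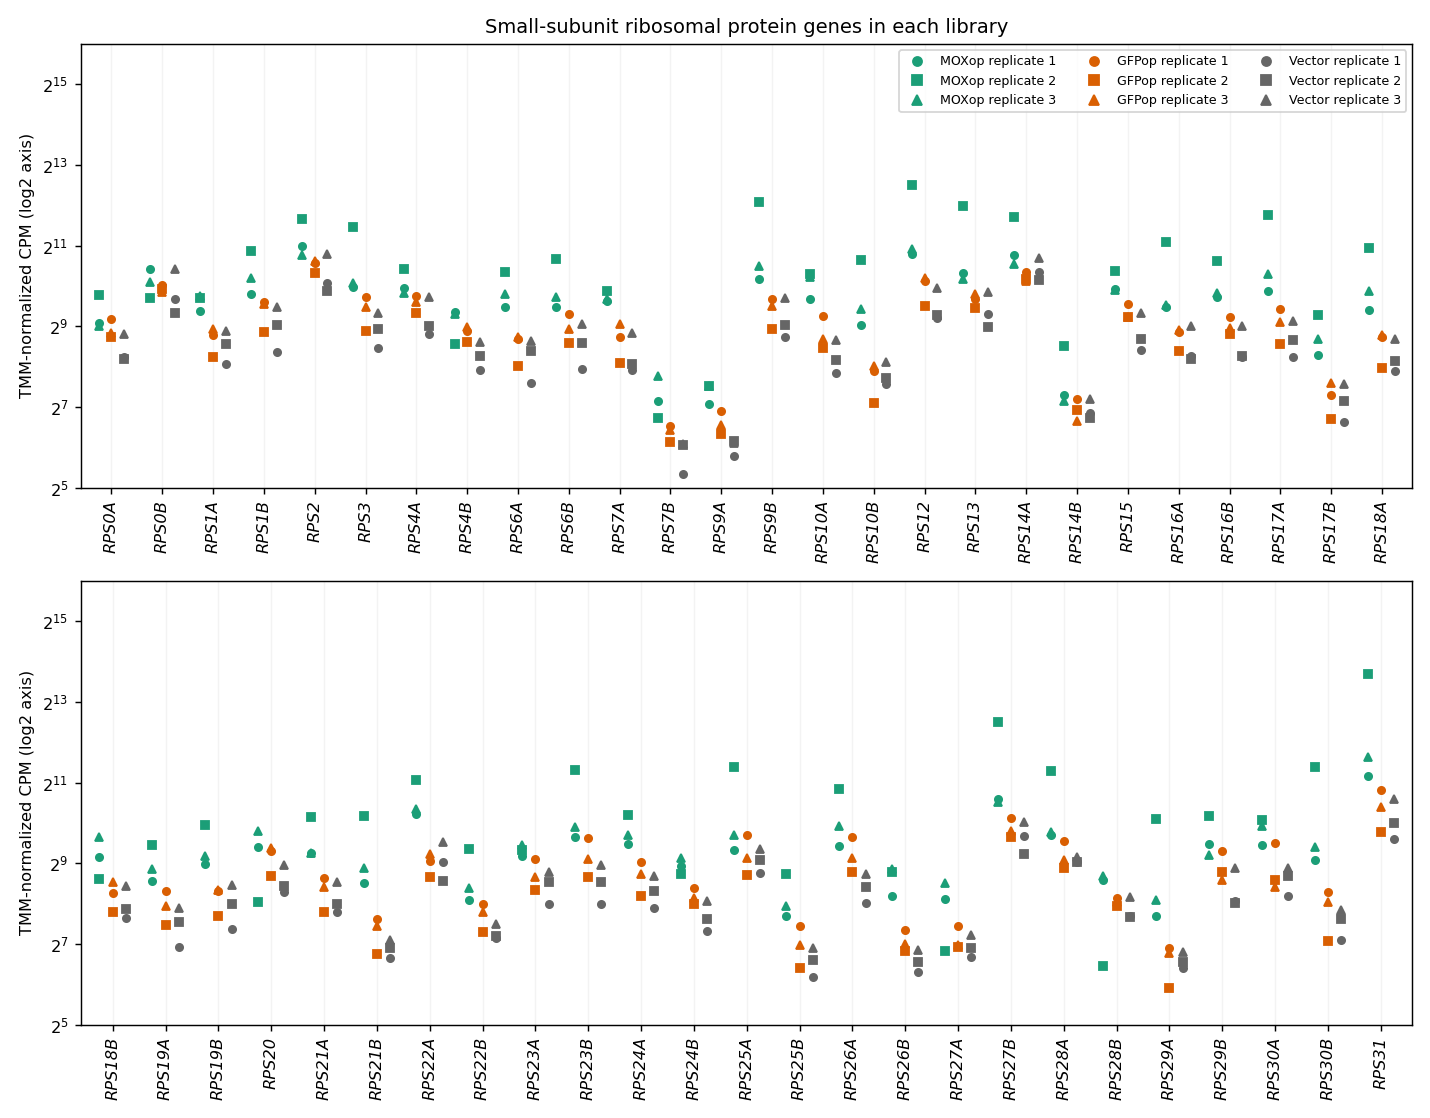
TMM-normalized CPM of 51 of the small-subunit genes on a log2 axis, a point for each of the 9 libraries, with MOXop left, GFPop in the middle and Vector right for each gene. MOXop replicate 2 (green squares) is above the mean of the other MOXop libraries for 43 of the genes drawn and below it for 8, and RPS31 reaches 13177.5 CPM in it.

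Per kilobase of coding sequence, the genes spanned a wide range. Over all libraries RPS31 (6293 CPM per kilobase), RPS27B (6280.1) and RPS28A (4139.9) had the highest means, and MOXop replicate 2 set that order. Without it RPS27B (4168) was above RPS31 (3491) and RPS14A (3299). In Vector alone RPS14A (3310.4), RPS27B (3302) and RPS28A (2639) were above RPS31 (2432). RPS7B (173), RPS9A (186) and RPS14B (373) were lowest over all libraries, and each of these is the minor copy of its pair. Summing paralogs narrowed the range: the highest family was 4.14 to 7.52 times the lowest in 8 libraries, with RPS3 or RPS7 lowest and RPS27, RPS28 or RPS30 highest. In MOXop replicate 2 the ratio was 40.2, from RPS20 (715 CPM per kilobase) to RPS31 (28709).

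In MOXop against Vector, the small-subunit genes were higher as a group. Of the 56 genes, 42 rose and 0 fell (edgeR quasi-likelihood test, FDR below 0.05), against 14.8% of all genes tested that rose and 14.0% that fell. DESeq2 called 51 higher and 0 lower, where 15.6% of all genes rose. At an unadjusted p below 0.05 edgeR had 52 genes, all with positive fold changes, against 23.2% of all genes. The median log2 fold change was 1.42 (range 0.22 to 2.79), against 0.14 over all genes tested. For 47 of the genes every MOXop library was above every Vector library, against 22.9% of all genes. Without MOXop replicate 2, 46 genes rose with a median of 1.12, against 18.5% of all genes, and 41 genes were called both ways. The count depended on the scaling and on single Vector libraries, and the share of all genes called fell with it. With library sizes alone 4 genes were called (RPS21B, RPS26B, RPS29A and RPS30B; median 1.24), against 1.64% of all genes, and with ERCC spike-ins as library size edgeR called 0 (median 1.08, with 4 genes at an unadjusted p below 0.05), against 0.174%. Without Vector replicate 1 there were 7 (median 1.27), against 5.39%, and without Vector replicate 2 there were 20 (median 1.41), against 10.7%. All 56 fold changes were positive in the fit with every library.

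In MOXop against GFPop, 16 genes rose and 0 fell, against 7.48% and 7.07% of all genes tested. At an unadjusted p below 0.05 there were 44 genes, again all with positive fold changes, against 17.9% of all genes, and DESeq2 called 39 higher and 0 lower, where 12.3% of all genes rose. The median log2 fold change was 1.06 (range 0.10 to 2.44), against 0.01 over all genes. Every MOXop library was above every GFPop library for 45 genes, against 16.8% of all genes. Without MOXop replicate 2, 22 genes rose with a median of 0.80, against 11.6% of all genes, and 14 genes were called both ways. RPS12 and RPS31 were called with that library and not without it, and RPS1A, RPS7A, RPS7B, RPS9A, RPS18B, RPS24A, RPS24B and RPS27A the other way round. The share of all genes called also differed between settings. By edgeR 0 genes were called with library sizes alone (median 0.44, with 5 genes at an unadjusted p below 0.05), against 0.3% of all genes, and 0 with ERCC spike-ins (median 0.81, with 0 genes at an unadjusted p below 0.05), against 0.0316%. Fitting the 2 groups alone called 1 (RPS26B; median 1.07), against 1.90%. Without GFPop replicate 1 there were 2 (median 1.25), against 1.73%, without GFPop replicate 2 there were 0 (median 0.86), against 0.5%, and without GFPop replicate 3 there were 5 (median 1.08), against 4.89%. Without Vector replicates 2 and 3 in turn there were 8 and 10 (median 1.06 in each), against 5.46% and 4.78%, and without MOXop replicate 1 there were 32 (median 1.25), against 11.2%.

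In GFPop against Vector, none of the 56 genes passed the test in either direction by edgeR or DESeq2, and edgeR had 0 at an unadjusted p below 0.05 and DESeq2 had 1. Among all genes tested, edgeR called 7.60% higher and 7.76% lower and DESeq2 8.57% and 11.5%, and 31.0% were at an unadjusted p below 0.05 by edgeR. Leaving MOXop replicate 2 out of the fit gave 0 calls as well (3 genes at an unadjusted p below 0.05), while 14.8% of all genes rose and 17.2% fell. Fold changes were positive for 51 genes and negative for 5, with a median of 0.34 (range -0.20 to 0.81) against 0.09 over all genes. For 4 genes, RPS7B, RPS9A and RPS26A among them, every GFPop library was above every Vector library (4 of 56), against 24.6% of all genes tested. Fitting the 2 groups alone called RPS26A by edgeR (FDR = 0.0484), where 14.2% of all genes rose. The 3 comparisons share libraries, so their fold changes for a gene are not independent of each other.

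**Figure D2:**
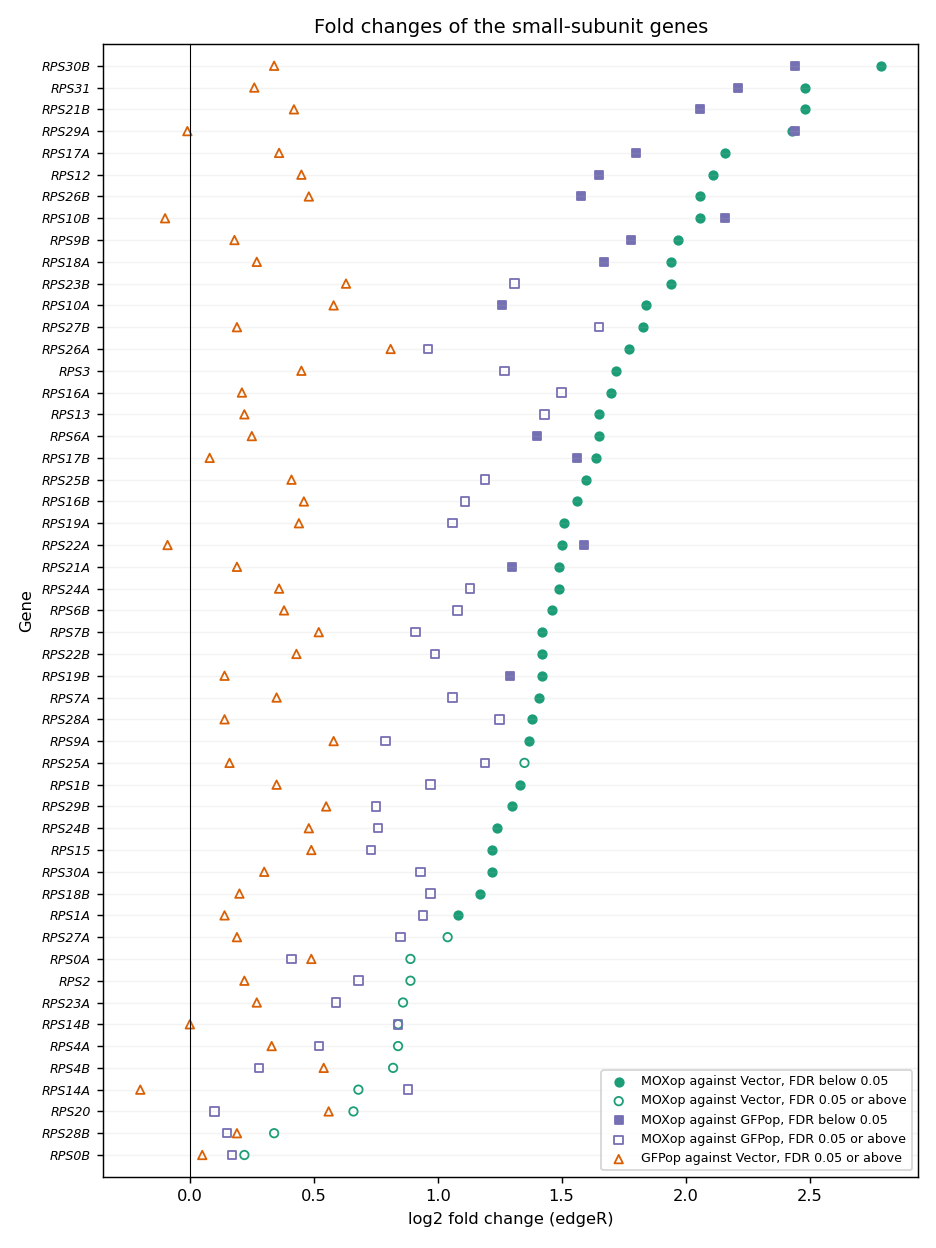
log2 fold change of 51 of the small-subunit genes in the 3 comparisons, sorted by MOXop against Vector, with filled symbols for an edgeR FDR below 0.05. MOXop against Vector runs from 0.22 (RPS0B) to 2.79 (RPS30B) with 39 filled symbols, MOXop against GFPop has 16, and GFPop against Vector has 0 and lies between -0.20 and 0.81.

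Members of the head and its beak included genes from both ends of the range. RPS31 (chrXII:498947-499405 in R64, as are the positions below) encodes ubiquitin fused to a protein of the beak, which is cut free after translation. It had 2297, 13177.5 and 3158 CPM in MOXop, 1790.3, 882 and 1343 CPM in GFPop and 780.2, 1029.6 and 1539 CPM in Vector. MOXop replicate 2 was far above the other MOXop libraries, but these too were above all Vector and GFPop libraries. It rose against Vector (log2 fold change 2.48, SE 0.65, edgeR FDR = 0.0172) and against GFPop (log2 fold change 2.21, SE 0.64, edgeR FDR = 0.0417, and log2 fold change 1.07 without MOXop replicate 2), and it was also called against Vector without MOXop replicate 2 (log2 fold change 1.28, edgeR FDR = 0.0148). RPS12 (chrXV:1028194-1028625), another protein of the beak, had 1781.5, 5774.5 and 1935 CPM in MOXop, 1121, 726 and 1173 CPM in GFPop and 593, 626 and 986 CPM in Vector. It rose against Vector (log2 fold change 2.11, SE 0.50, edgeR FDR = 0.0114, and log2 fold change 1.33 without MOXop replicate 2) and against GFPop (log2 fold change 1.65, SE 0.49, edgeR FDR = 0.0455, and log2 fold change 0.93 without MOXop replicate 2). All MOXop libraries were above all others. RPS10A and RPS10B encode the beak protein beside the mRNA entry. RPS10A had 824, 1258 and 1186.5 CPM in MOXop, 606, 351.5 and 410.5 CPM in GFPop and 228, 286 and 402 CPM in Vector. RPS10B had 524, 1611 and 686 CPM in MOXop, 235, 137 and 259 CPM in GFPop and 189, 211 and 277 CPM in Vector. Both rose in MOXop against Vector, RPS10A by 1.84 and RPS10B by 2.06 on the log2 scale (edgeR FDR = 0.00497 and 0.00823), and both against GFPop, by 1.26 and 2.16 (edgeR FDR = 0.0352 and 0.0138). RPS10B was at 1.42 against Vector and 1.57 against GFPop without MOXop replicate 2. In GFPop against Vector RPS10A was at 0.58 and RPS10B at -0.10, and neither passed the test.

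RPS20 (chrVIII:75412-75777), a protein of the head that the ligase Hel2 tags with ubiquitin when ribosomes collide, behaved differently in MOXop replicate 2. It had 675, 262 and 891 CPM in MOXop, 629.7, 411 and 662 CPM in GFPop and 310.0, 348 and 498 CPM in Vector. That library held the lowest of the 9 values, while the other MOXop libraries were above all Vector and GFPop libraries. Over all libraries the test did not call it against Vector (log2 fold change 0.66, SE 0.43, edgeR FDR = 0.255), and without MOXop replicate 2 it was called (log2 fold change 1.02, edgeR FDR = 0.0192). RPS15 (chrXV:253149-253577), whose tail reaches the decoding centre, had 975, 1317 and 961 CPM in MOXop, 754, 602 and 605 CPM in GFPop and 342, 408 and 646 CPM in Vector. It rose against Vector (log2 fold change 1.22, SE 0.33, edgeR FDR = 0.0193) and was not called against GFPop (log2 fold change 0.73, SE 0.33, edgeR FDR = 0.142).

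RPS29A and RPS29B encode a short zinc-binding protein deep in the head. RPS29A had 206, 1096 and 273 CPM in MOXop, 120.2, 59.7 and 109 CPM in GFPop and 85.0, 94.6 and 112 CPM in Vector. RPS29B had 718, 1149.9 and 586 CPM in MOXop, 637.5, 439.8 and 382 CPM in GFPop and 268, 257 and 471 CPM in Vector. RPS29A rose in MOXop against Vector (log2 fold change 2.43, SE 0.58, edgeR FDR = 0.0116) and against GFPop (log2 fold change 2.44, SE 0.58, edgeR FDR = 0.0214, and log2 fold change 1.36 without MOXop replicate 2), and it was also called against Vector without MOXop replicate 2 (log2 fold change 1.29, edgeR FDR = 0.00425). RPS29B rose against Vector (log2 fold change 1.30, SE 0.38, edgeR FDR = 0.0264) but overlapped GFPop. RPS28A and RPS28B encode a small head protein near the mRNA exit, and the yeast protein is known to bind the RPS28B mRNA and hasten its decay. RPS28A had 835, 2504 and 873 CPM in MOXop, 757, 475 and 542 CPM in GFPop and 522.5, 524.5 and 568 CPM in Vector. RPS28B had 381.5, 87.5 and 411.5 CPM in MOXop, 282, 247 and 264 CPM in GFPop and 207, 202 and 288 CPM in Vector. In MOXop replicate 2 the paralogs moved apart, with RPS28A above and RPS28B below every other library. RPS28A rose against Vector (log2 fold change 1.38, SE 0.44, edgeR FDR = 0.0365) but not without that library (log2 fold change 0.66, edgeR FDR = 0.0783). RPS28B was not called (log2 fold change 0.34, SE 0.46, edgeR FDR = 0.598) and was called without it (log2 fold change 0.77, edgeR FDR = 0.0308).

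RPS19A and RPS19B encode a head protein whose human counterpart is mutated in Diamond-Blackfan anaemia. RPS19A had 379, 701 and 468 CPM in MOXop, 317, 177 and 246 CPM in GFPop and 121, 187 and 236 CPM in Vector. RPS19B had 504.5, 989.5 and 577 CPM in MOXop, 319, 207 and 323 CPM in GFPop and 167, 253 and 351 CPM in Vector. Both rose against Vector, by 1.51 and 1.42 on the log2 scale (edgeR FDR = 0.0124 and 0.0187), and RPS19B also against GFPop (log2 fold change 1.29, SE 0.38, edgeR FDR = 0.0444). Among the remaining head genes, RPS16A, RPS16B, RPS17A, RPS17B, RPS18A and RPS18B rose against Vector, with log2 fold changes from 1.17 (RPS18B) to 2.16 (RPS17A). The order differed without MOXop replicate 2, from 0.97 (RPS16A) to 1.39 (RPS18B), with RPS17A at 1.37. The tail of Rps16 touches the tRNA in the peptidyl site, and Rps18 lies at the contact with the large subunit. Of these, RPS17A, RPS17B and RPS18A also rose against GFPop. RPS25A, for a head protein needed for initiation at some viral internal entry sites, was not called against Vector (log2 fold change 1.35, SE 0.52, edgeR FDR = 0.0687, and log2 fold change 0.45 without MOXop replicate 2), and its value in MOXop replicate 2 was 2663 CPM, against 645 and 834.5 CPM in the other MOXop libraries. RPS25B rose (log2 fold change 1.60, SE 0.38, edgeR FDR = 0.0111).

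Around the mRNA entry and the decoding centre, RPS30B had the highest fold change of all 56 genes over all libraries. RPS26B was highest without MOXop replicate 2. Rps30 is a small basic protein at the entry of the channel. RPS30B had 543, 2659 and 673 CPM in MOXop, 314, 134 and 264 CPM in GFPop and 138, 196 and 228 CPM in Vector. RPS30A had 701, 1078 and 972 CPM in MOXop, 725, 382 and 340.5 CPM in GFPop and 291, 413 and 475 CPM in Vector. RPS30B rose in MOXop against Vector (log2 fold change 2.79, SE 0.60, edgeR FDR = 0.00818) and against GFPop (log2 fold change 2.44, SE 0.60, edgeR FDR = 0.0228, and log2 fold change 1.40 without MOXop replicate 2), and it was also called against Vector without MOXop replicate 2 (log2 fold change 1.69, edgeR FDR = 0.002). RPS30A rose against Vector (log2 fold change 1.22, SE 0.37, edgeR FDR = 0.0304) and overlapped GFPop. RPS3 (chrXIV:302680-303402), which lines the entry and helps to unwind mRNA, had 1001, 2802 and 1081 CPM in MOXop, 842, 468 and 718 CPM in GFPop and 355, 490.3 and 640.3 CPM in Vector. It rose against Vector (log2 fold change 1.72, SE 0.46, edgeR FDR = 0.0187, and log2 fold change 1.07 without MOXop replicate 2) and was not called against GFPop (log2 fold change 1.27, SE 0.45, edgeR FDR = 0.0773, and log2 fold change 0.67 without MOXop replicate 2). Its partner at the entry, RPS2 (chrVII:277617-278381), had 2028, 3221 and 1750.3 CPM in MOXop, 1521, 1288.5 and 1573 CPM in GFPop and 1068, 937 and 1770.0 CPM in Vector. MOXop overlapped Vector, and RPS2 was not called (log2 fold change 0.89, SE 0.37, edgeR FDR = 0.0906).

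Rps9 lies at the entry and affects the accuracy of decoding. RPS9B had 1158, 4369.6 and 1449.9 CPM in MOXop, 813, 490.1 and 726 CPM in GFPop and 425, 525 and 836 CPM in Vector. RPS9A had 136, 185 and 185 CPM in MOXop, 119, 79.8 and 93.3 CPM in GFPop and 55.5, 71.3 and 68.9 CPM in Vector. Both rose against Vector, RPS9B by 1.97 and RPS9A by 1.37 on the log2 scale (edgeR FDR = 0.0181 and 0.00554), and RPS9A was the minor copy in every library. These values were 1.13 for RPS9B and 1.29 for RPS9A without MOXop replicate 2, in the opposite order. RPS9B also rose against GFPop (log2 fold change 1.78, SE 0.52, edgeR FDR = 0.0423, and log2 fold change 0.99 without MOXop replicate 2). RPS23A and RPS23B encode an identical protein of the decoding centre. RPS23B had 805.5, 2561.5 and 958 CPM in MOXop, 792, 407 and 548 CPM in GFPop and 256, 371 and 499 CPM in Vector. RPS23A had 585, 647 and 706 CPM in MOXop, 556, 325 and 406 CPM in GFPop and 256, 369 and 439.5 CPM in Vector. RPS23B rose against Vector (log2 fold change 1.94, SE 0.49, edgeR FDR = 0.0146, and log2 fold change 1.23 without MOXop replicate 2). RPS23A was not called (log2 fold change 0.86, SE 0.32, edgeR FDR = 0.0596), and was called without MOXop replicate 2 (log2 fold change 0.86, edgeR FDR = 0.0427).

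On the platform and at the mRNA exit, Rps26 contacts the mRNA just upstream of the start codon. RPS26A had 688, 1845 and 975 CPM in MOXop, 799, 441 and 565 CPM in GFPop and 259, 343 and 425 CPM in Vector. RPS26B had 294, 443 and 467 CPM in MOXop, 162.5, 113 and 128 CPM in GFPop and 79.2, 94.1 and 115 CPM in Vector. RPS26B rose against Vector (log2 fold change 2.06, SE 0.30, edgeR FDR = 0.00171) and against GFPop (log2 fold change 1.58, SE 0.30, edgeR FDR = 0.0104). It had the lowest FDR of the 56 genes in both comparisons and was called against Vector with library sizes alone. RPS26A rose against Vector (log2 fold change 1.77, SE 0.42, edgeR FDR = 0.0112, and log2 fold change 1.27 without MOXop replicate 2) but overlapped GFPop, and it had the highest value of the 56 genes in GFPop against Vector (log2 fold change 0.81, SE 0.41, edgeR FDR = 0.202). Rps14 sits on the platform, and the yeast protein represses splicing of RPS14B. RPS14A had 1753, 3354 and 1487 CPM in MOXop, 1300.1, 1161 and 1115 CPM in GFPop and 1309, 1137 and 1665 CPM in Vector. RPS14B had 158, 362 and 142 CPM in MOXop, 146, 121 and 101 CPM in GFPop and 116, 106 and 147 CPM in Vector. Neither was called in MOXop against Vector, with 0.68 for RPS14A and 0.84 for RPS14B (edgeR FDR = 0.178 and 0.103), and without MOXop replicate 2 these values were 0.24 and 0.28. RPS14A had the lowest fold change in GFPop against Vector (log2 fold change -0.20, SE 0.37, edgeR FDR = 0.748).

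Rps0 and Rps21 are neighbours on the outer side of the subunit and join it late in its assembly. RPS0B had 1375, 838 and 1089 CPM in MOXop, 1043, 969 and 916 CPM in GFPop and 819, 639 and 1377 CPM in Vector. RPS0A had 544, 877 and 511 CPM in MOXop, 582, 423 and 452.5 CPM in GFPop and 302, 293 and 445 CPM in Vector. RPS0B had the lowest fold change of MOXop against Vector (log2 fold change 0.22, SE 0.35, edgeR FDR = 0.655), with the 3 groups overlapping, and without MOXop replicate 2 RPS14A was lowest. RPS0A was not called either (log2 fold change 0.89, SE 0.32, edgeR FDR = 0.0587). RPS21B had 365, 1155 and 472 CPM in MOXop, 198, 107 and 174 CPM in GFPop and 101, 118.5 and 138 CPM in Vector. RPS21A had 611, 1144 and 616 CPM in MOXop, 400.5, 221 and 342 CPM in GFPop and 221, 254 and 370.5 CPM in Vector. Both rose in MOXop, RPS21B against Vector by 2.48 and against GFPop by 2.06 (edgeR FDR = 0.00398 and 0.0153), and RPS21A by 1.49 and 1.30 (edgeR FDR = 0.0144 and 0.0397). RPS21B was at 1.81 and 1.43 without MOXop replicate 2. RPS1A and RPS1B, for a platform protein, rose against Vector with 1.08 and 1.33 (edgeR FDR = 0.0293 and 0.0301).

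In the body of the subunit, RPS13 (chrIV:579458-580452) encodes a protein that forms a contact with the large subunit. It had 1289.6, 4031 and 1158 CPM in MOXop, 812, 697 and 889 CPM in GFPop and 631.5, 509 and 923 CPM in Vector. It rose against Vector (log2 fold change 1.65, SE 0.49, edgeR FDR = 0.0278, and log2 fold change 0.83 without MOXop replicate 2) and not against GFPop (log2 fold change 1.43, SE 0.49, edgeR FDR = 0.0675, and log2 fold change 0.66 without MOXop replicate 2). RPS22A and RPS22B encode a protein that binds early to the 18S rRNA. RPS22A had 1185, 2132.5 and 1302 CPM in MOXop, 528, 406 and 605 CPM in GFPop and 520.2, 377 and 736 CPM in Vector. RPS22B had 274, 653 and 333.5 CPM in MOXop, 256, 158.5 and 220.1 CPM in GFPop and 143, 146 and 181 CPM in Vector. RPS22A rose against Vector (log2 fold change 1.50, SE 0.37, edgeR FDR = 0.0132) and against GFPop (log2 fold change 1.59, SE 0.37, edgeR FDR = 0.0202), while GFPop and Vector overlapped. RPS22B rose against Vector (log2 fold change 1.42, SE 0.36, edgeR FDR = 0.0151). The snoRNA SNR44 in its intron had 12.7, 39.7 and 10.4 CPM in MOXop, 1.78, 3.69 and 5.75 CPM in GFPop and 18.5, 9.14 and 16.5 CPM in Vector. It was lower in GFPop than in Vector (log2 fold change -1.97, SE 0.57, edgeR FDR = 0.0396), a direction its host gene did not share (log2 fold change 0.43), and its counts of 18 to 216 were small beside those of RPS22B.

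RPS27B (chrVIII:147871-148669) encodes a zinc-binding protein and was the major copy of its pair. RPS27B had 1549.7, 5772 and 1479.8 CPM in MOXop, 1106, 801 and 898.5 CPM in GFPop and 817, 602 and 1048 CPM in Vector. RPS27A had 277, 114 and 367 CPM in MOXop, 174, 120.5 and 126 CPM in GFPop and 101.5, 119 and 149 CPM in Vector. RPS27B rose against Vector (log2 fold change 1.83, SE 0.53, edgeR FDR = 0.0252, and log2 fold change 0.88 without MOXop replicate 2). RPS27A was not called (log2 fold change 1.04, SE 0.39, edgeR FDR = 0.0667), and was called without MOXop replicate 2 (log2 fold change 1.38, edgeR FDR = 0.00177). RPS7B had 142, 106 and 219 CPM in MOXop, 92.6, 70.3 and 86.6 CPM in GFPop and 40.3, 66.1 and 68.0 CPM in Vector, and its major copy RPS7A had 796, 945 and 823.5 CPM in MOXop, 426, 272 and 535 CPM in GFPop and 243, 269.8 and 454 CPM in Vector. Both rose against Vector, with 1.42 for RPS7B and 1.41 for RPS7A (edgeR FDR = 0.0107 and 0.0143). RPS4B had 654, 375 and 635 CPM in MOXop, 474, 387.5 and 506 CPM in GFPop and 242, 309 and 390.0 CPM in Vector, with MOXop replicate 2 below the other MOXop libraries, and RPS4A had 989, 1381 and 899.8 CPM in MOXop, 867, 638 and 782 CPM in GFPop and 449, 518 and 854 CPM in Vector. Neither RPS4B (log2 fold change 0.82, SE 0.32, edgeR FDR = 0.0714) nor RPS4A (log2 fold change 0.84, SE 0.34, edgeR FDR = 0.0822) was called, and RPS4B was called without MOXop replicate 2 (log2 fold change 1.03, edgeR FDR = 0.0105). RPS6A and RPS6B, for the protein phosphorylated through the TORC1 pathway, rose against Vector by 1.65 and 1.46 (edgeR FDR = 0.00995 and 0.0235), and RPS6A also against GFPop (log2 fold change 1.40, SE 0.37, edgeR FDR = 0.0316). RPS24A and RPS24B rose against Vector by 1.49 and 1.24 (edgeR FDR = 0.0112 and 0.0112).

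The genes were also compared by features that the choice of genes did not use. Of all genes tested, 14.8% rose in MOXop against Vector, with a median log2 fold change of 0.14. Without MOXop replicate 2, 18.5% of all genes rose, with a median of 0.05. In MOXop against Vector, 28 of 36 genes with an intron rose (median log2 fold change 1.47, or 1.22 without MOXop replicate 2), and 14 of 20 without an intron (median 1.34, or 1.04 without that library). Of the 18 genes with an upstream match 15 rose (median 1.54, or 1.31 without that library), and of the 38 without a match 27 rose (median 1.41, or 1.04). Among the 8 genes without a paralog 5 rose (median 1.44, or 1.03), and among the 48 genes of pairs 37 rose (median 1.42, or 1.16), so the order of these medians turned without that library. The differences between these groups were not tested. The 7 genes whose proteins hold 4 or 5 cysteines (RPS26A, RPS26B, RPS27A, RPS27B, RPS29A, RPS29B and RPS31) had a median of 1.83 with 6 called, and 1.28 with 7 called without MOXop replicate 2. They include several of the shortest coding sequences.

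Ratios of the A to the B paralog within a library do not depend on how libraries are scaled. In MOXop against Vector, both genes of 16 pairs rose, 1 gene of 5 pairs (among them RPS23, RPS25, RPS27 and RPS28) and neither gene of 3 pairs (RPS0, RPS4 and RPS14). The log2 A/B ratio did not overlap between MOXop and Vector for 5 of 24 pairs (20.8%), between MOXop and GFPop for 5 (20.8%) and between GFPop and Vector for 8 (33.3%). Among 37 other gene pairs named A and B, most of them of the large subunit, it did not overlap for 40.5% between MOXop and Vector, 32.4% between MOXop and GFPop and 37.8% between GFPop and Vector. With 3 libraries against 3, an exact permutation test (two-sided) cannot go below p = 0.1, and adjusted over the 24 pairs the smallest values were 0.48 in both MOXop comparisons and 0.30 in GFPop against Vector. No pair passed a threshold. Without MOXop replicate 2, with 2 libraries against 3, 13 pairs (54.2%) did not overlap between MOXop and Vector, against 67.6% of the other pairs, and 11 (45.8%) between MOXop and GFPop, against 48.6%. In each case the 5 pairs were among them, which had to be so, as leaving out a library cannot make groups overlap.

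Between MOXop and Vector, RPS30 had the widest gap of these pairs. Its log2 A/B ratio was 0.37, -1.30 and 0.53 in MOXop, 1.21, 1.51 and 0.37 in GFPop and 1.08, 1.08 and 1.06 in Vector. The RPS30A share was lower in every MOXop library than in any Vector library, with a mean difference of -1.21, or -0.62 without MOXop replicate 2. RPS23 had log2 A/B ratios of -0.46, -1.99 and -0.44 in MOXop, -0.51, -0.33 and -0.43 in GFPop and -0.00, -0.01 and -0.18 in Vector. MOXop and GFPop were both below Vector without overlap, with mean differences of -0.90 for MOXop, or -0.39 without MOXop replicate 2, and -0.36 for GFPop. RPS21 had 0.74, -0.01 and 0.38 in MOXop, 1.02, 1.05 and 0.97 in GFPop and 1.13, 1.10 and 1.43 in Vector. Here the order of the groups was MOXop below GFPop below Vector with no overlap, and the mean differences were -0.85 for MOXop against Vector, -0.64 for MOXop against GFPop and -0.21 for GFPop against Vector.

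Between MOXop and GFPop, RPS29 had the largest mean difference of the pairs without overlap. Its log2 A/B ratio was -1.80, -0.07 and -1.10 in MOXop, -2.41, -2.88 and -1.80 in GFPop and -1.66, -1.44 and -2.07 in Vector, a mean difference of 1.37, or 0.91 without MOXop replicate 2. For this pair MOXop replicate 1 and GFPop replicate 3 were nearly equal, and GFPop and Vector overlapped. RPS22 had 2.11, 1.71 and 1.96 in MOXop, 1.05, 1.36 and 1.46 in GFPop and 1.86, 1.37 and 2.02 in Vector, with MOXop above GFPop by 0.64. RPS9 had -3.09, -4.56 and -2.97 in MOXop, -2.77, -2.62 and -2.96 in GFPop and -2.94, -2.88 and -3.60 in Vector. MOXop was below GFPop by a mean difference of -0.76, or -0.25 without MOXop replicate 2. The MOXop and GFPop values of replicate 3 were nearly equal. Between GFPop and Vector, the pairs with the largest mean differences among those without overlap were RPS10, RPS23, RPS26 and RPS19. Some pairs with overlap had larger mean differences than RPS26 and RPS19, such as RPS29 (-0.64). RPS10 had 0.65, -0.36 and 0.79 in MOXop, 1.36, 1.35 and 0.67 in GFPop and 0.27, 0.44 and 0.54 in Vector, a mean difference of 0.71. RPS26 had 1.23, 2.06 and 1.06 in MOXop, 2.30, 1.96 and 2.15 in GFPop and 1.71, 1.87 and 1.88 in Vector, a difference of 0.32. RPS19 had -0.41, -0.50 and -0.30 in MOXop, -0.01, -0.22 and -0.39 in GFPop and -0.46, -0.44 and -0.57 in Vector, a difference of 0.28. The A copy of RPS26 and the B copy of RPS19 were the larger in every library of each group. In RPS10 the A copy was the larger in every library except MOXop replicate 2.

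**Figure D3:**
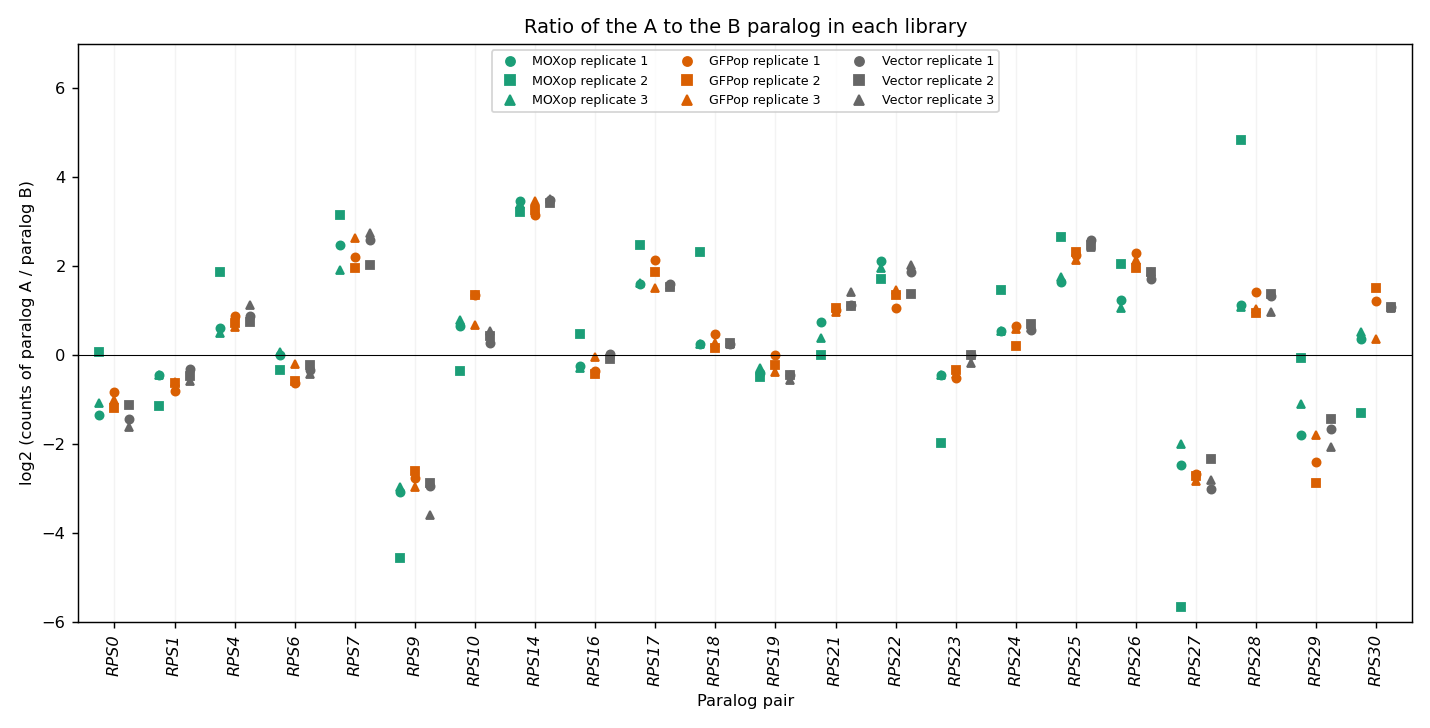
log2 ratio of the counts of paralog A to paralog B for 22 of the pairs, a point for each library, with MOXop left, GFPop in the middle and Vector right. RPS7, RPS9, RPS14, RPS25 and RPS27 keep the same major copy in every library, and MOXop replicate 2 (green squares) departs most, to -5.66 for RPS27 and 4.84 for RPS28.

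MOXop replicate 2 differed from the other MOXop libraries gene by gene. Of the 56 genes, 47 were above the mean of the other MOXop libraries in it and 9 below, among them RPS28B, RPS20, RPS27A, RPS18B and RPS4B. The deviations ran from -2.18 (RPS28B) to 2.29 (RPS31) on the log2 scale with an SD of 0.95, against SDs of 0.18 to 0.26 for the same measure in Vector and GFPop libraries. The spread was not particular to these genes. Over all genes tested the SD was 1.34 in MOXop replicate 2 and 0.42 to 0.57 in Vector and GFPop libraries. The median deviation in MOXop replicate 2 was 0.79 for the 56 genes and -0.04 over all genes tested. RPS31 took 13.3% of the counts of small-subunit genes in it, against 5.31 and 6.47% in the other MOXop libraries. Genes with shorter coding sequences tended to be higher in it, with a Spearman rho of -0.27 across the 56 genes and -0.53 across 909 genes at least as abundant. These correlations are across genes of the same libraries, which are not independent replicates. The part of the rRNA share and of transcript length in these results was not tested.

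**Figure D4:**
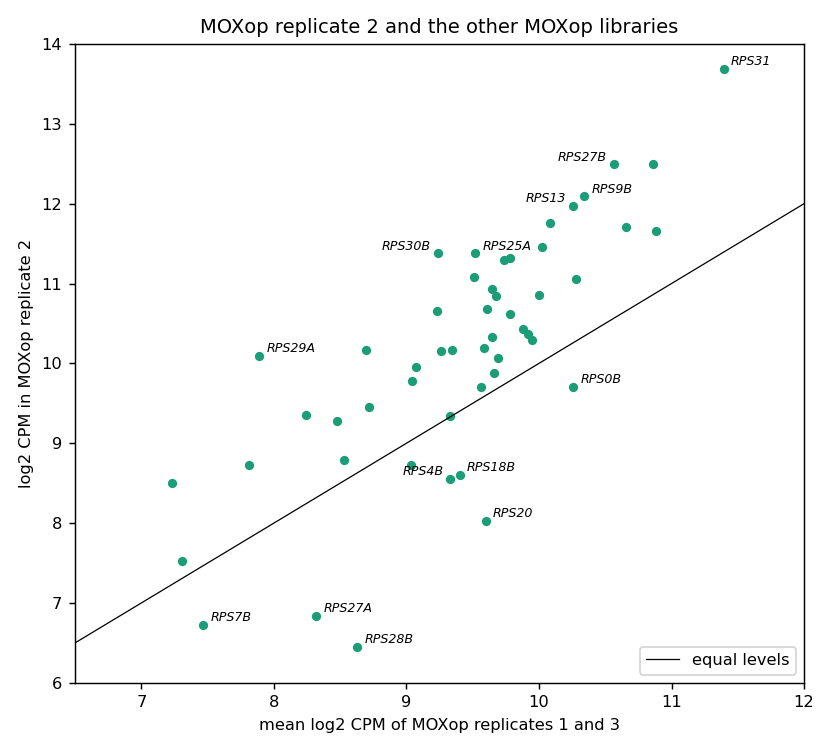
log2 CPM of 51 of the small-subunit genes in MOXop replicate 2 against their mean in MOXop replicates 1 and 3, with a line of equal levels. Of these, 43 lie above the line and 8 below it, with RPS31 and RPS28B at the ends of the range of deviations (2.29 and -2.18).

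Other genes of small-subunit biology were counted by lists. Among all genes tested, 14.8% rose in MOXop against Vector, 7.48% in MOXop against GFPop and 7.6% in GFPop against Vector. The median log2 fold changes of all genes were 0.14, 0.01 and 0.09. Of 9 late 40S maturation factors, which finish the particle in the cytoplasm, 8 rose in MOXop against Vector (median log2 fold change 1.16), 3 in MOXop against GFPop (median 0.66) and 2 in GFPop against Vector (median 0.63), and 0 fell in any. LTV1, which guides Rps3 and the beak into place, had 20.9, 31.2 and 32.3 CPM in MOXop, 10.8, 10.2 and 7.08 CPM in GFPop and 3.91, 10.3 and 5.49 CPM in Vector. It rose in MOXop against Vector (log2 fold change 2.09, SE 0.38, edgeR FDR = 0.00401) and against GFPop (log2 fold change 1.58, SE 0.37, edgeR FDR = 0.0211). PNO1, which holds the end of the 18S rRNA before its last cut by Nob1, had 65.1, 73.8 and 90.3 CPM in MOXop, 41.3, 34.2 and 35.1 CPM in GFPop and 20.7, 28.8 and 21.9 CPM in Vector. It rose against Vector (log2 fold change 1.68, SE 0.25, edgeR FDR = 0.00197) and against GFPop (log2 fold change 1.05, SE 0.25, edgeR FDR = 0.0216). ENP1 and TSR1 rose in MOXop (1.78 and 1.85 against Vector, edgeR FDR = 0.00352 and 0.00545) and also in GFPop against Vector (1.12 and 1.43, edgeR FDR = 0.0322 and 0.022). RIO1, RIO2, NOB1 and DIM1 rose against Vector by 1.11, 0.84, 1.02 and 1.16, DIM1 also against GFPop by 1.41, and HRR25 was not called (log2 fold change 0.38, SE 0.47, edgeR FDR = 0.557). Without MOXop replicate 2 the count against Vector was again 8 of 9, against 18.5% of all genes, with HRR25 called and NOB1 not. Of the 6 genes listed as escorts of small-subunit proteins, TSR2, the escort of Rps26, rose against Vector (log2 fold change 2.08, SE 0.38, edgeR FDR = 0.00397) and against GFPop (log2 fold change 1.53, SE 0.37, edgeR FDR = 0.0222). YAR1, the escort of Rps3, rose against Vector (log2 fold change 1.24, SE 0.30, edgeR FDR = 0.0121), while TSR4, FAP7, KAP123 and PSE1 were not called.

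Among 8 enzymes that modify small-subunit proteins, 3 rose in MOXop against Vector, against 14.8% of all genes tested. These were SFM1, which methylates Rps3 (log2 fold change 1.24, SE 0.28, edgeR FDR = 0.00979), the arginine methyltransferase HMT1 (log2 fold change 1.24, SE 0.30, edgeR FDR = 0.0123) and ARD1, the catalytic subunit of an N-terminal acetyltransferase (log2 fold change 1.36, SE 0.37, edgeR FDR = 0.0198). SFM1 also rose against GFPop (log2 fold change 1.39, SE 0.28, edgeR FDR = 0.0129). Of 10 regulators of ribosomal protein genes, edgeR called 0 higher in any comparison, where 7.48 to 14.8% of all genes tested rose. At an unadjusted p below 0.05 there were 2 regulators in MOXop against Vector in either direction, against 2738 of all 6338 genes tested. Without MOXop replicate 2, FHL1 and the repressor TOD6 were called higher in MOXop against Vector (edgeR FDR = 0.00678 and 0.00045). In that fit both were also called higher in GFPop against Vector (edgeR FDR = 0.0145 and 0.0212), and TOD6 in MOXop against GFPop (edgeR FDR = 0.0293). CRF1, a corepressor that acts through Fhl1, was lower. CRF1 had 20.7, 18.7 and 13.2 CPM in MOXop, 24.4, 32.6 and 21.9 CPM in GFPop and 73.6, 63.5 and 37.0 CPM in Vector. It fell in MOXop against Vector (log2 fold change -1.73, SE 0.33, edgeR FDR = 0.00468) and in GFPop against Vector (log2 fold change -1.14, SE 0.32, edgeR FDR = 0.0344). It was not called in MOXop against GFPop (log2 fold change -0.59, SE 0.32, edgeR FDR = 0.222). Of the other 40S-bound proteins, STM1, which clamps idle ribosomes, rose in MOXop against Vector (log2 fold change 1.17, SE 0.33, edgeR FDR = 0.0219). In GFPop against Vector STM1 was not called (log2 fold change 0.95, SE 0.33, edgeR FDR = 0.0735), and was called without MOXop replicate 2 (edgeR FDR = 0.0218). ASC1 was not called in MOXop against Vector (log2 fold change -0.06, SE 0.35, edgeR FDR = 0.899). Of 76 large-subunit genes, 63 rose in MOXop against Vector (median log2 fold change 1.68) and 33 in MOXop against GFPop (median 1.25). Of all genes tested, 14.8% and 7.48% rose in these comparisons. In GFPop against Vector edgeR called 0 large-subunit genes higher (median 0.40), against 7.6% of all genes. There 6 were at an unadjusted p below 0.05, against 31.0% of all genes. Without MOXop replicate 2, 62 rose in MOXop against Vector (median 1.25), against 18.5% of all genes. In MOXop against GFPop 30 then rose (median 0.87), against 11.6%. In GFPop against Vector 6 were then called higher and 1 lower, against 14.8% and 17.2% of all genes.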

How the data were processed

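RNA of 9 log-phase cultures of BY4743 (3 each of MOXop, GFPop and Vector) was extracted with hot phenol, mixed with ERCC spike-ins and sequenced in paired ends from a stranded total RNA kit. The authors checked reads with FastP, aligned them with HISAT2 2.2.0, handled them with SAMtools 1.11, quantified them with StringTie and named edgeR 3.28.1 in their notes. The build, annotation and strand setting are not given in the sources used here. The deposited values are raw counts per gene without normalization, 7220 rows with 92 ERCC rows. Names and sequences come from RefSeq R64, to which 6048 rows matched by locus tag.

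Gene rows were filtered with filterByExpr (6338 kept), scaled by TMM and tested with edgeR 4.0.16 (R 4.3.3; quasi-likelihood, all 9 libraries, group means, no block), with Benjamini-Hochberg FDR over all genes tested and a threshold of 0.05. DESeq2 1.42.0 was an alternative. Log2 A/B ratios of counts were compared by exact permutation. Scripts were tested on simulated counts. Groups and replicate numbers come from the labels. The totals, 7022201 to 12959660 gene counts, leave counting error small beside the spread between replicates. Same-numbered libraries did not deviate together consistently, so the numbers were not used as pairs. Their correlations ran from -0.326 to 0.232, and the 3 of 9 pairs over 0.1 were all of replicate 3. The lists (35 genes in 5 lists, and the large-subunit genes) and the members were chosen with earlier results of these data known. Values per library are given by rule for genes without a paralog and the 4 highest and 4 lowest fold changes of each comparison. They are also given for the 4 pairs per comparison with the largest mean differences among those without overlap. The same holds for the 3 highest and lowest per coding length, and list genes are named where called. Single values of some of these genes are not reported here, and the counts, shares and medians include them. Other genes and the uncalled list genes were named after their values were seen, as were the other A/B pairs as background. Alternatives were other scalings (DESeq2 size factors, library sizes, ERCC), filters, DESeq2's Wald test, fits to the 2 groups compared, the replicate block, tables without plasmid or rRNA rows, and leaving out each library.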

Additional observations from a re-analysis of the deposited data

How the results depend on the processing

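Counts of small-subunit genes called higher moved with the scaling, the test and single libraries, and the cause was not tested. With library sizes alone, the calls were 4 for MOXop against Vector and 0 for MOXop against GFPop, and the median log2 fold changes were 0.44 for MOXop against GFPop and 0.75 for GFPop against Vector, where the medians of all genes moved to -0.47 and 0.52. With ERCC spike-ins as library size, 0 genes were called in either MOXop comparison. For MOXop against GFPop, DESeq2's Wald test called 39, fitting the 2 groups alone 1 and the replicate block 5. The number of all genes that the block called in that comparison is not given here. Fitting the 2 groups alone called 1 in GFPop against Vector. The replicate block left 36 in MOXop against Vector; same-numbered libraries correlated between -0.326 and 0.232, with 3 of 9 pairs over 0.1. Leaving out each library in turn gave 7 to 46 calls and a median of 1.12 to 1.69 for MOXop against Vector, 0 to 32 and 0.80 to 1.25 for MOXop against GFPop, and 0 calls with 0.13 to 0.56 for GFPop against Vector; shares of counts stayed within 4.33 to 5.52% in MOXop, 3.25 to 3.98% in GFPop and 1.79 to 2.60% in Vector. Without rRNA rows the MOXop share was 7.11%, and without rRNA and GFP rows it was 8.96% in MOXop and 4.98% in GFPop.

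Fold changes near 0 changed sign. In GFPop against Vector, library sizes alone gave 0.23 for RPS14A, 0.32 for RPS10B, 0.35 for RPS22A and 0.41 for RPS29A, and the block gave 0.06 for RPS29A. In MOXop against GFPop, library sizes alone gave -0.15 for RPS20, -0.06 for RPS28B, -0.22 for RPS0B and -0.07 for RPS4B, and the block gave -0.00 for RPS20 and -0.03 for RPS28B. Leaving out each library gave -0.28 to 0.13 for RPS10B, -0.29 to 0.19 for RPS22A, -0.20 to 0.24 for RPS29A and -0.00 to 0.56 for RPS31 in GFPop against Vector, and -0.28 to 0.51 for RPS20, -0.17 to 0.63 for RPS28B and -0.00 to 0.38 for RPS0B in MOXop against GFPop. None of these values was called in either direction.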
